A study of Mus musculus with 2 samples.

Results

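Sertoli cells are the supporting cells of the seminiferous tubule. Here they were chosen by measured values, as the barcodes that carried a UMI (a unique molecular identifier, which marks 1 captured RNA molecule) for at least 4 of the 7 genes Cst9, Cst12, Cldn11, Defb19, Defb36, Rhox8 and Aard, and fewer than 40 UMIs per 10000 for Insl3, Cyp17a1, Hsd3b1 and Cyp11a1 together, 4 genes of the androgen-producing Leydig cells. The levels of these 11 genes therefore describe the barcodes and are not a result. In all, 650 of 12768 barcodes met it, 73 of 5756 in the WT library and 577 of 7012 in the KO library. The libraries came from testes of 12-week-old C57BL/6 mice, 1 library of wild type and 1 of Alkbh5-/- mice, which lack the m6A demethylase ALKBH5 in every cell. The sources give 1 mouse per genotype in one place and 3 in another, so a library may pool animals. With 1 library per genotype no difference below has a replicate check, no test was made, and every interval is an exact 95% interval that covers counting error only.

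Sertoli cells surround the germ cells from spermatogonia to elongated spermatids, feed them with lactate and metals, form the blood-testis barrier with claudins and other junction proteins, and engulf the residual bodies and dying germ cells. They answer to follicle-stimulating hormone and testosterone, and their products follow the stage of the germ cells around them. Because germ cells stay embedded in Sertoli cytoplasm, dissociated Sertoli cells often carry germ cell RNA, of which the protamine and transition protein messages (Prm1, Prm2, Tnp1 and Tnp2, the proteins that pack sperm DNA) are the most abundant.

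The 7 genes lie mostly in small families of genes with restricted expression. On GRCm38 (GENCODE vM21), the cystatin genes Cst12 (chr2:148789361-148793546, plus strand) and Cst9 (chr2:148835147-148838738, plus strand) lie near each other on chromosome 2. Cst8 (chr2:148798785-148805595, plus strand) lies between them. The beta-defensin genes Defb19 (chr2:152576086-152580312, minus strand) and Defb36 (chr2:152604327-152612729, plus strand) also lie near each other there. Rhox8 (chrX:37874778-37878944, minus strand) is a homeobox gene of the X-linked Rhox cluster, Aard lies at chr15:52040107-52045722, and Cldn11 (chr3:31149920-31164324, plus strand) encodes the main claudin of the blood-testis barrier. RefSeq promoter windows on GRCm38.p6, from 250 bases before to 50 bases after the annotated start, were found for 4 of the 7 genes, and they are shown because these genes define the barcodes. Capitals mark 2 motifs, searched on both strands and here without overlap. The SOX core AACAAT was held by 10.7% of the 32851 windows of the table. The GATA core GATAA was held by 25.4% of them.
Cst9, chr2:148834897-148835196, plus strand: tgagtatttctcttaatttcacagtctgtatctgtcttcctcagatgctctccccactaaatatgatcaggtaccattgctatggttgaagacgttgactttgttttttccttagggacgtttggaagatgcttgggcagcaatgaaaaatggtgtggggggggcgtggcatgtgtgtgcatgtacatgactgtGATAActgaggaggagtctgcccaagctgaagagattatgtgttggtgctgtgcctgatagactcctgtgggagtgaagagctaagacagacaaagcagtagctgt
Cst12, chr2:148789115-148789414, plus strand: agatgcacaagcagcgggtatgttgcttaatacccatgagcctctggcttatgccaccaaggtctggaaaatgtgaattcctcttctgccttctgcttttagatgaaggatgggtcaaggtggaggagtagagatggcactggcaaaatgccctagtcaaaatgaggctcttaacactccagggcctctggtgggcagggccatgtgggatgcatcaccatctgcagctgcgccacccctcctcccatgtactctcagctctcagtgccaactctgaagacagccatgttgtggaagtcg
Defb36, chr2:152604077-152604376, plus strand: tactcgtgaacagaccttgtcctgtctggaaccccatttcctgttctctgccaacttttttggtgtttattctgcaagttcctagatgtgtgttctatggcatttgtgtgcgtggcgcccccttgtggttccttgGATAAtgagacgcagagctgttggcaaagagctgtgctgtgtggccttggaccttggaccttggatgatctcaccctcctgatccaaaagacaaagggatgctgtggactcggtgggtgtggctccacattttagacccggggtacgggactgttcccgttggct
Cldn11, chr3:31149670-31149969, plus strand: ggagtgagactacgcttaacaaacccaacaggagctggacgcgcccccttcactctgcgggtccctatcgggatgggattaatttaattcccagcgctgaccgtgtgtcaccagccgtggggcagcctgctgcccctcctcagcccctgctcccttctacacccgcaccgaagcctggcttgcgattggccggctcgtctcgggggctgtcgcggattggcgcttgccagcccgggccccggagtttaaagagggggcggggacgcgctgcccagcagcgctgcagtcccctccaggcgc
The Defb36 and Cst9 windows held 1 GATA match each, and the Cst12 and Cldn11 windows neither set of letters. The Cldn11 window was 66.3% G and C, against 46% to 52.7% in the other 3. A match is a run of letters and says nothing of binding.

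These barcodes made up 1.27% of the WT library, with an interval from 0.995 to 1.59%, and 8.23% of the KO library, from 7.60 to 8.90%. KO over WT, this came to a ratio of 6.49 (5.08 to 8.40). The number of genes seen per barcode split the set. All 7 genes were seen in 18 WT barcodes, 0.313% of that library, and in 406 KO barcodes, 5.79%. These shares stood 18.5-fold apart (11.6 to 31.6). Only 4 to 6 genes were seen in 55 WT and 171 KO barcodes, a ratio of 2.55 (1.87 to 3.53). Thus 24.7% of the WT set (15.3 to 36.1%) but 70.4% of the KO set (66.5 to 74.1%) carried all 7. Just inside the limit, 22 WT and 60 KO barcodes had exactly 4 genes, and just outside it 21 WT and 103 KO barcodes had 3. The Leydig limit removed 2 WT and 33 KO barcodes, the lowest of them at 40.9 and 40.5 UMIs per 10000, while the highest value kept was 1.65 in WT and 32.2 in KO.

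**Figure D1:**
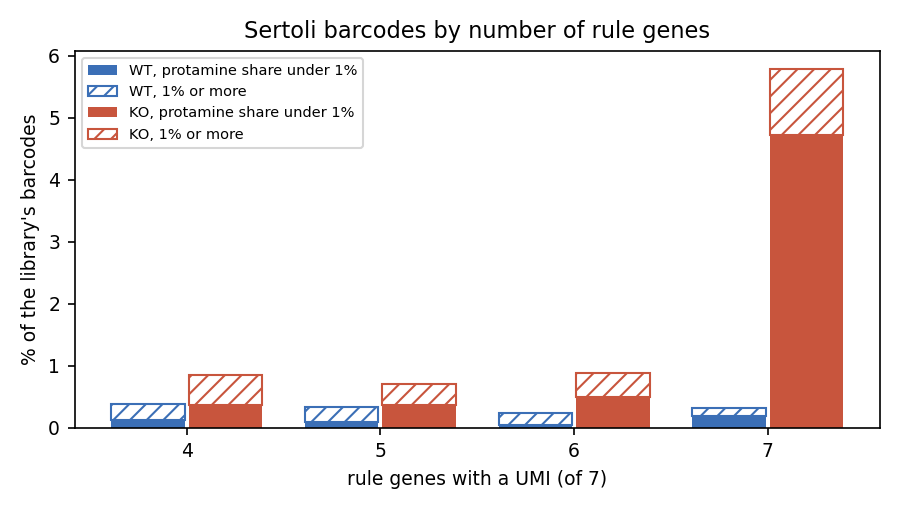
Share of each library's barcodes (y axis, percent) that had 4, 5, 6 or 7 of the 7 genes (x axis) and passed the Leydig limit, in WT (blue) and KO (red). Solid parts have a protamine and transition protein share under 1% and hatched parts 1% or more. The KO bar at 7 genes stands at 5.79%, against 0.313% in WT.

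The libraries differed in other cell types too. Barcodes with at least 3 of the Leydig genes and 40 or more Leydig UMIs per 10000 numbered 73 in WT against 1013 in the KO library, with shares in a ratio of 11.4 (8.98 to 14.7), and barcodes with macrophage markers 24 and 90, a ratio of 3.08 (1.94 to 5.05). A share of barcodes depends on how many germ cells were captured beside them, and more Sertoli cells per testis and fewer germ cells cannot be told apart here. The WT library held 80283221 UMIs and the KO library 82056760, with at least 5142 and 4792 UMIs per barcode. The libraries had 45 barcode sequences in common, and no sequence was a Sertoli barcode in both. Alkbh5 had 9 UMIs in the 73 WT barcodes (9.07 CPM, UMIs per 1000000) and 1 UMI in the 577 KO barcodes (0.160 CPM), which matched the labels.

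The label was checked with 24 Sertoli genes that the choice did not use, among them Sox9, Wt1, Amhr2, Inha, Clu and Ctsl. In barcodes with all 7 genes their summed level had a median of 200.3 UMIs per 10000 in WT (28.4 to 435.4) and 263 in KO (8.04 to 486.1), against 10 and 12.0 in the barcodes outside the set. The Leydig barcodes, a somatic class, stood higher than that, with medians of 60.2 in WT and 61.2 in KO. Outside the KO set the highest barcode stood at 268.1. In barcodes with 4 to 6 genes the median was 24.6 in WT and 28.2 in KO. The name therefore held for most barcodes with all 7 genes, and it did not hold for most of those with 4 to 6: in WT the latter had a median of 1723 UMIs per 10000 for 12 elongating spermatid markers, and the highest of them stood at 60.1 for the Sertoli genes. Of the 18 WT barcodes with all 7 genes, 3 lay below that value, at 28.4, 34.0 and 56.4 UMIs per 10000. In KO the barcodes with 4 to 6 genes were mixed, from 0.257 to 347.9 UMIs per 10000 for the Sertoli genes.

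The 4 protamine and transition protein genes took 9.93% of all UMIs of the WT set and 3.25% of the KO set, close in WT to the 9.55% outside the set and lower in KO than the 5.45% there. In barcodes with all 7 genes the share was 3.18% in WT and 1.49% in KO, and in those with 4 to 6 genes 11.3% and 7.03%. Barcodes at 1% or more numbered 47 of 73 in WT and 159 of 577 in KO. With all 7 genes they numbered 7 of 18 and 75 of 406. The set with all 7 genes and a share under 1%, called low-protamine below, left 11 WT and 331 KO barcodes, 0.191% and 4.72% of their libraries and a ratio of 24.7 (13.6 to 49.97).

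Among the 18 WT barcodes with all 7 genes, ordered by protamine share, the 11 under 1% had 123.7 to 435.4 UMIs per 10000 for the Sertoli genes outside the choice. The 4 with the highest protamine shares, 5.42%, 10.4%, 18.3% and 22.3%, had 28.4, 92.3, 56.4 and 34.0. These 4 did not overlap the 11. The barcodes between, at 1.22%, 1.90% and 3.47%, had 105.6, 209 and 229.3, and the values 209 and 229.3 lay within the range of the 11. The summed level of the 7 genes, in barcodes with all 7, had a median of 230.1 UMIs per 10000 in WT and 215.2 in KO. The choice used these genes, so this describes the barcodes and is not a result. The mitochondrial share also differed in its median, which was 13.2% in WT and 13.7% in KO with all 7 genes, and 2.63% and 3.75% with 4 to 6. It did not separate every barcode. The WT barcodes with all 7 genes at protamine shares of 10.4%, 18.3% and 22.3% had mitochondrial shares of 4.20%, 3.83% and 1.65%.

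**Figure D2:**
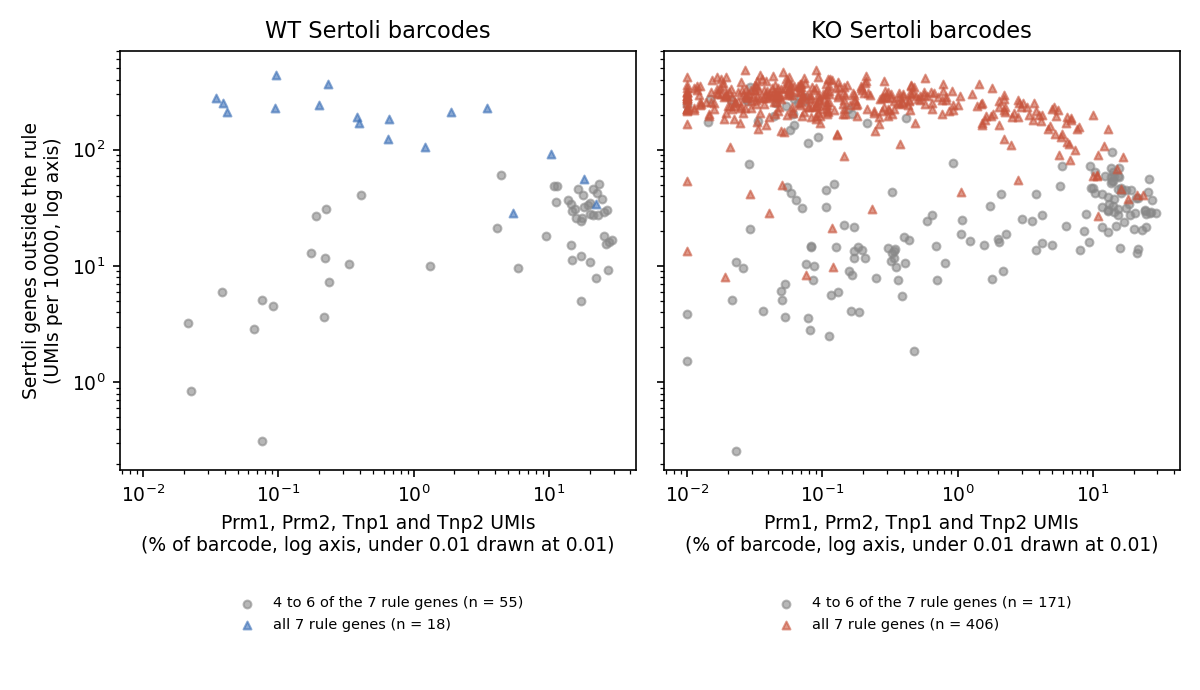
Each point is 1 Sertoli barcode of the WT (left) or KO library (right), by its protamine and transition protein share (x axis, percent, log axis) and its summed level of 24 Sertoli genes outside the choice (y axis, UMIs per 10000, log axis). Triangles have all 7 genes and grey circles 4 to 6. In WT, the 11 triangles under 1% lie between 123.7 and 435.4 on the y axis, and no circle lies above 60.1.

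The 7 genes themselves differed unequally between the 2 kinds of WT barcode. Cst9 stood at 6883 CPM with all 7 genes and 385.7 CPM with 4 to 6. Aard stood at 1482 and 160.1 CPM, and Cldn11 at 952.6 and 12.1 CPM. Outside the choice, Clu, which encodes the secreted chaperone clusterin, stood at 7472 and 114 CPM, and Ctsl, a lysosomal protease, at 4870 and 90.97 CPM. Barcodes were put into the 2 kinds by these very genes, so their ratios are a description. Of the 7, Defb19 alone was high in another class, with 3083 CPM in the WT and 2388 CPM in the KO Leydig barcodes, where Cst9 had 2 UMIs in 73 WT barcodes and stood at 20.5 CPM in KO. A UMI of any of the 7 was seen in 7.83% of the other barcodes in WT and 40.5% in KO.

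Between genotypes, the whole set and the barcodes with all 7 genes gave different pictures. Over the whole set, 5527 genes were detected in 25% or more of either genotype's barcodes, of which 2001 were at least 2 times higher in KO (36.2%) and 1162 at least 2 times lower (21%). Without the 4 protamine and transition protein genes in the total these shares were 33.7% and 23.6%, so leaving out those 4 genes alone moved them little. With all 7 genes, 497 of 5005 genes were 2 times higher (9.93%) and 340 lower (6.79%). In the low-protamine barcodes 580 of 5254 were higher (11%) and 493 lower (9.38%). The median log2 ratio of all genes moved from 0.40 to 0.30 without the 4 genes, to 0.12 with all 7 genes and to 0.012 in the low-protamine barcodes. Of 1998 genes called higher over the whole set and measured with all 7 genes, 260 were also called there and 523 had the opposite sign. Of 489 called lower, 171 were also called and 92 had the opposite sign. Genes enter each count through the genotype where they are seen, so the counts of list members below are read against these shares only as a description.

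Transcription factors of Sertoli identity were less far apart once all 7 genes were asked for, with 10 of 12 higher in KO. Their median log2 ratio there was 0.53, against 0.12 for all genes. In the low-protamine barcodes 13 passed the filter, with 9 higher in KO and 4 lower. Of these, 4 were at least 2 times higher and 1 at least 2 times lower, and the median was 0.42, against 0.012 for all genes. Sox9, which drives Sertoli fate, stood at 29.2 CPM in WT and 118.1 CPM in KO over the whole set, and at 136.9 and 164.1 CPM with all 7 genes, a log2 ratio of 0.26 (-0.34 to 0.93). Wt1, the Wilms tumour factor that maintains that fate, had a log2 ratio of 1.49 (0.99 to 2.05) over the whole set and -0.14 (-0.72 to 0.52) with all 7 genes. Both intervals with all 7 genes held 0. Of 13 such factors, 12 passed the filter over the whole set and 12 with all 7 genes. Over the whole set all 12 were 2 times higher (median log2 ratio 2.16), and with all 7 genes 3 were (median 0.53). Among them were Nr0b1, a repressor of steroid signalling, with 4 and 308 UMIs and 1.61 (0.23 to 3.49), and Arid4b, a chromatin regulator, with 14 and 837 UMIs and 1.24 (0.48 to 2.12). The WT sum of Nr0b1 was of 4 UMIs. Rhox5, a homeobox gene that answers to androgen in Sertoli cells, stood at 232.2 and 364.9 CPM with all 7 genes (0.65, 0.19 to 1.15).

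Hormones and signals to germ cells gave the same contrast between sets. Amhr2, the receptor of anti-Mullerian hormone, stood at 193.5 and 614.1 CPM over the whole set and at 964.5 and 857.6 CPM with all 7 genes (log2 ratio -0.17, -0.40 to 0.07). Inha, the alpha subunit of inhibin that restrains pituitary FSH, stood at 577.5 and 665.7 CPM with all 7 genes (0.20, -0.09 to 0.51). Kitl, the ligand that germ cells read through KIT, stood at 160.8 and 181.8 CPM (0.18, -0.38 to 0.79), and Dhh, the hedgehog ligand for Leydig and peritubular cells, had 5 and 142 UMIs (0.17, -1.09 to 1.81). These intervals all held 0. The median of the hormone list moved from 2.09 (5 of 5 genes 2 times higher) to 0.19 (1 of 6), and that of the ligand list from 1.84 (1 gene) to 0.17 (0 of 4). Fshr, the FSH receptor, had 1 UMI in 1 of 18 WT barcodes and a UMI in 70 of 406 KO barcodes (20.5 CPM). Amh and Gdnf, further defining products of Sertoli cells, had 0 UMIs in the 18 WT barcodes and stood at 3.29 and 8.70 CPM in KO. Fshr, Amh and Gdnf are given as markers of the cell type and not under the rule for named genes.

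**Figure D3:**
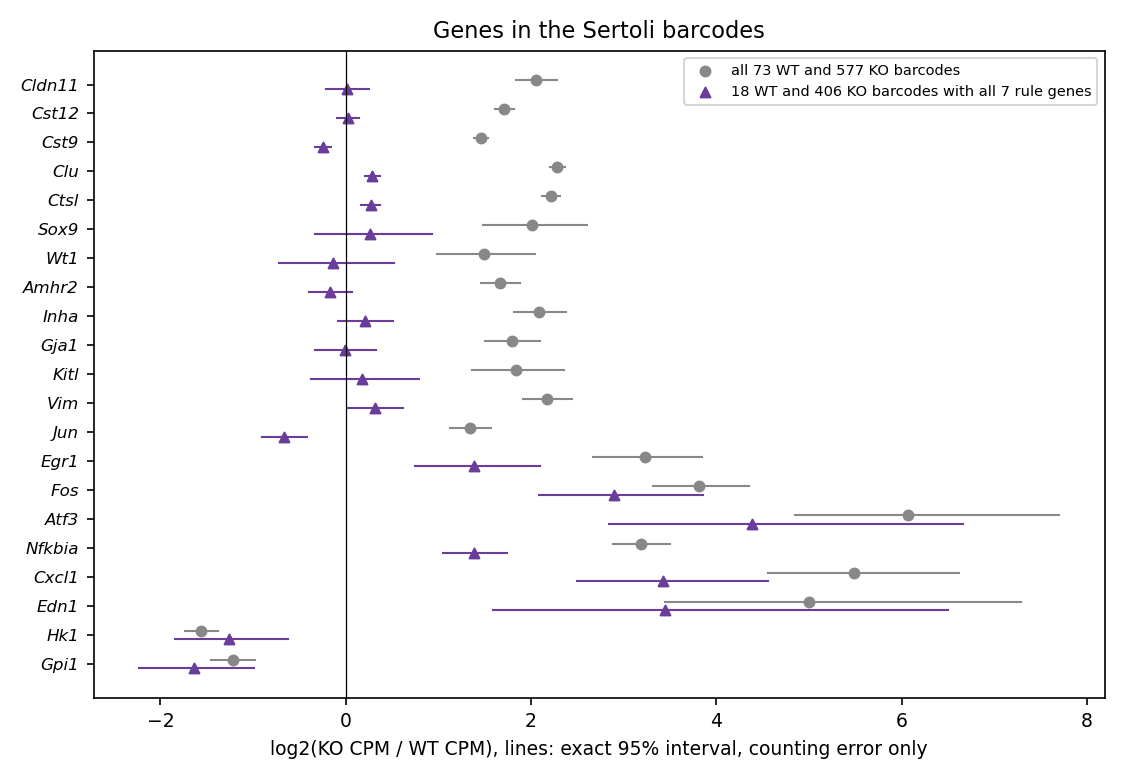
Log2 ratio of KO to WT CPM (x axis) for 21 genes (y axis) over all Sertoli barcodes (grey circles) and over those with all 7 genes (violet triangles), with exact 95% intervals for counting error. Genes from Cldn11 to Vim lie between 1.46 and 2.29 in grey and between -0.25 and 0.31 in violet, while Fos, Atf3, Nfkbia, Cxcl1 and Edn1 lie at 1.39 or above in violet. Cldn11, Cst12 and Cst9, the last with the violet value of -0.25, were used by the choice, so their ratios describe the barcodes and are not a result.

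Genes of the blood-testis barrier and of cell adhesion had a median log2 ratio of 1.99 over the whole set (15 of 17 genes 2 times higher, 1 lower) and 0.47 with all 7 genes (4 of 19 higher, 1 lower). Gja1, the gap junction protein connexin 43, stood at 482.3 and 478.3 CPM with all 7 genes (-0.01, -0.33 to 0.33). Cldn11, which the choice used, stood at 952.6 and 962.7 CPM. Vcl, the actin linker vinculin, had 5 WT and 443 KO UMIs (1.81, 0.57 to 3.44), and Nectin2, an adhesion molecule of the Sertoli-germ cell contact, had 10 and 499 (0.98, 0.09 to 2.05). Cytoskeletal genes had a median of 1.62 and 0.31 in the 2 sets, with 0 of 10 2 times higher or lower with all 7 genes. Vim, the intermediate filament of Sertoli cells, stood at 595.4 and 739.1 CPM there (0.31, 0.02 to 0.61).

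The machinery of phagocytosis was measured through 22 genes of uptake receptors and lysosomes. Its median moved from 1.76 (13 of 17 genes 2 times higher) to 0.28 (3 of 20 higher, 1 lower). Tyro3 and Axl, receptors for dying germ cells, stood with all 7 genes at 71.5 and 58.8 CPM (-0.28, -1.11 to 0.69) and at 59.5 and 55.5 CPM (-0.10, -1.01 to 0.98). Mertk, the third receptor of the family, had 2 WT and 132 KO UMIs (1.38, -0.50 to 4.44). Lgmn and Psap, a lysosomal protease and a lysosomal activator, stood at 291.7 and 486.5 CPM (0.74, 0.33 to 1.18) and at 333.4 and 538.5 CPM (0.69, 0.31 to 1.10), so both intervals lay above 0. Ctsl stood at 4870 and 5867 CPM (0.27, 0.17 to 0.37), and in the low-protamine barcodes its log2 ratio was 0.02 (-0.09 to 0.13).

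Carriers, inhibitors and retinoid genes held a few larger differences. Timp1, an inhibitor of matrix metalloproteases, had 0 UMIs in the 18 WT barcodes and 352 in 114 KO barcodes (82.8 CPM), at least 2.21 higher on the log2 scale with the WT sum taken at 3 counts. Timp3 had 7 and 495 UMIs (1.48, 0.43 to 2.80). Clu stood at 7472 and 9124 CPM (0.29, 0.21 to 0.37), and Fth1, the ferritin heavy chain, at 1346 and 1138 CPM (-0.24, -0.43 to -0.04). Aldh1a1, which makes retinoic acid, stood at 202.4 and 329.9 CPM (0.70, 0.22 to 1.24). Trf, the transferrin gene, did not pass the filter with all 7 genes. It had 0 WT and 109 KO UMIs there, 0.52 higher with the WT sum taken at 3 counts. The medians of the 3 lists moved from 1.4 (6 of 8 2 times higher) to 0.13 (1 of 8 higher, 1 lower) for carriers, from 1.66 (8 of 10) to 0.27 (2 of 11) for proteases and inhibitors, and from 1.93 (3 of 4) to 0.70 (1 of 3) for retinoid genes.

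The list of glucose and lactate genes held 2 genes at least 2 times lower in KO in both sets. Among all genes, 21% were lower by that much over the whole set and 6.79% with all 7 genes. The list's median was 0.69 over the whole set, with 5 of 11 genes 2 times higher and 2 lower. With all 7 genes it was -0.06, with 0 of 12 higher and 2 lower. The 2 lower genes in both sets were Hk1, a hexokinase, at 154.8 and 64.4 CPM with all 7 genes (-1.26, -1.85 to -0.62), and Gpi1, the next enzyme of glycolysis, at 154.8 and 49.9 CPM (-1.64, -2.23 to -0.99). Both also stood higher in WT barcodes outside the set, at 398.1 and 188.4 CPM, than in the WT barcodes with all 7 genes, and in the low-protamine barcodes they had 5 and 6 WT UMIs with intervals that held 0 (-2.26 to 0.69 and -2.19 to 0.47). The part of germ cell RNA in these values was not tested. Ldhb, the lactate dehydrogenase subunit of Sertoli cells, stood at 1304 and 1839 CPM (0.50, 0.30 to 0.70), and Slc16a1, a lactate exporter, at 101.2 and 59.7 CPM (-0.76, -1.47 to 0.04). Lipid genes had a median of 1.56 (6 of 7 higher, 1 lower) and 0.12 (1 of 7 higher). Scd2, a fatty acid desaturase, stood at 321.5 and 332.7 CPM (0.05, -0.34 to 0.47).

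**Figure D4:**
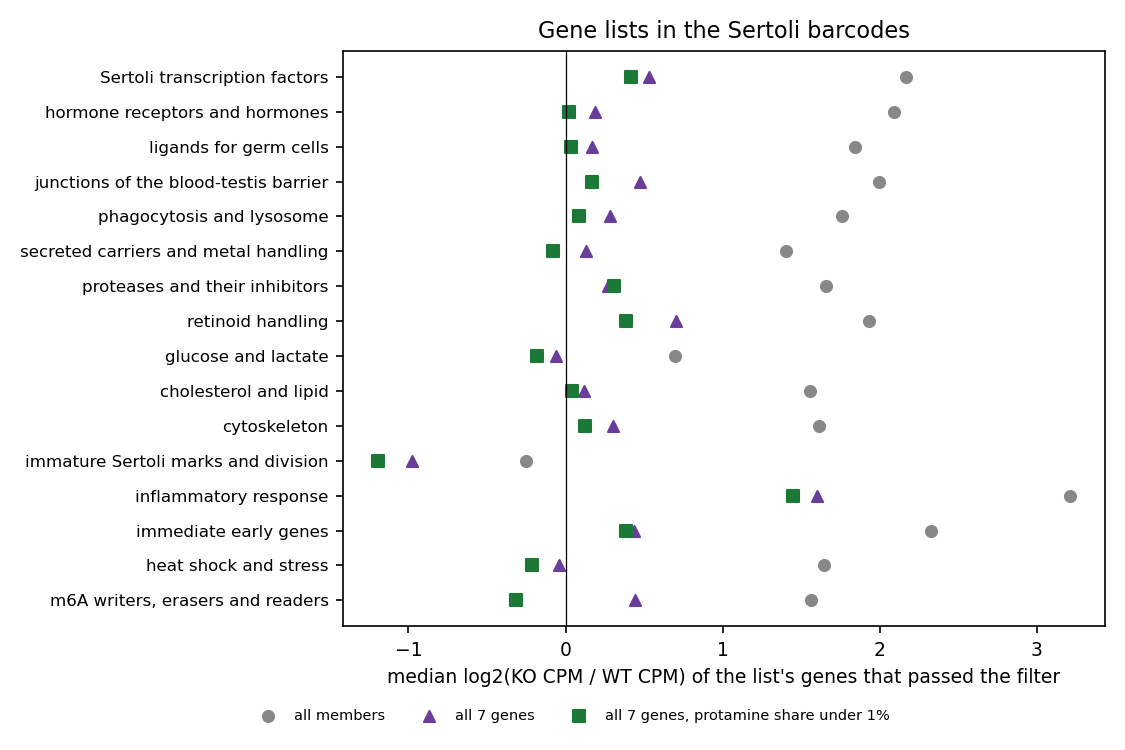
Median log2 ratio of KO to WT CPM (x axis) of the genes of 16 lists that passed the filter (y axis), over all Sertoli barcodes (circles), those with all 7 genes (triangles) and those with all 7 genes and a protamine share under 1% (squares). The inflammatory list is at 3.21, 1.598 and 1.45, and the list of Sertoli factors at 2.16, 0.53 and 0.42.

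Inflammatory genes were the list whose median stayed above 1 in all 3 sets: 3.21 over the whole set (7 of 7 genes 2 times higher), 1.598 with all 7 genes (6 of 8) and 1.45 in the low-protamine barcodes (6 of 8). Without genes whose WT sum was 0, the last 2 medians were 1.389 and 1.448. Genes such as Cxcl1 and Lcn2 passed the filter with all 7 genes through KO alone, where they were high. That raises the list's median in advance, so it is a description. Nfkbia, the inhibitor that NF-kB induces against itself, had 72 UMIs in 15 of 18 WT barcodes (428.7 CPM) and 4773 UMIs in 384 of 406 KO barcodes (1122 CPM), a log2 ratio of 1.39 (1.05 to 1.75). Cxcl1, a neutrophil chemokine, had 9 UMIs in 3 WT barcodes (53.6 CPM) and 2450 in 266 KO barcodes (576.1 CPM), a log2 ratio of 3.43 (2.499 to 4.56). Both groups of barcodes held some without a UMI of Cxcl1. Ier3, an early gene of the same response, had 12 and 674 UMIs (1.15, 0.34 to 2.11), and Nfkbiz, a nuclear partner of NF-kB, 1 and 255 UMIs (3.33, 0.84 to 8.64). Lcn2, the iron-trapping protein lipocalin 2, had 1 and 318 UMIs (3.65, 1.16 to 8.96), so that its WT level rested on 1 molecule. Outside the set Lcn2 stood at 168.5 CPM in WT and 3274 CPM in KO, far above the 74.8 CPM of the KO barcodes with all 7 genes, and the part of RNA from other barcodes in its ratio was not tested. Irf1, the interferon regulatory factor, had 0 WT and 266 KO UMIs, at least 1.81 higher. B2m, the light chain of MHC class I, stood at 83.4 and 145.8 CPM (0.81, 0.05 to 1.69).

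The same genes differed between the libraries in other barcodes. In Leydig barcodes Cxcl1 stood at 187.2 CPM in WT and 1126 CPM in KO, Irf1 at 11.2 and 159 CPM, and Nfkbia at 108.6 and 376.6 CPM. In KO, Nfkbia was higher in the Sertoli barcodes with all 7 genes (1122 CPM) than in Leydig (376.6 CPM) or macrophage barcodes (321.5 CPM). These classes carried unequal amounts of germ cell RNA. The 12 elongating spermatid markers summed to 17465 CPM in the KO Sertoli barcodes with all 7 genes. In KO they summed to 6568 CPM in Leydig and 45209 CPM in macrophage barcodes. The part of this RNA in the Nfkbia levels was not tested. The 14 macrophage markers summed to 202.4 CPM in the 18 WT barcodes, where 6 of them had a UMI, and to 388.2 CPM in the 406 KO barcodes, where all 14 had one, with medians of 1.37 and 2.10 UMIs per 10000. The 10 Leydig markers summed to 839.5 and 624.6 CPM. The part of either in the Sertoli values was not tested, and a difference between the animals and one in the handling of the 2 testis samples cannot be told apart.

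Immediate early genes, which tissue dissociation also induces, had a median log2 ratio of 2.33 over the whole set. There 14 of 14 genes were higher in KO, 12 of them at least 2 times. With all 7 genes the direction was mixed, with 9 of 13 genes higher and 4 lower. Of these 13, 5 were at least 2 times higher, beside 9.93% of all genes, and 0 at least 2 times lower. The median there was 0.44, and in the low-protamine barcodes 2 of 13 were at least 2 times higher. Fos had 12 UMIs in 2 of 18 WT barcodes, 8 of them in 1 barcode, and 2265 UMIs in 292 of 406 KO barcodes, 71.5 and 532.6 CPM (2.90, 2.09 to 3.85). Atf3, a stress-induced repressor, had 3 UMIs, all in 1 WT barcode, and 1590 in 229 KO barcodes (4.39, 2.84 to 6.67). Egr1 stood at 119.1 and 310.4 CPM (1.38, 0.75 to 2.10) and Gadd45b at 214.3 and 450.1 CPM (1.07, 0.60 to 1.59). Jun went the other way, at 928.8 and 585.5 CPM (-0.67, -0.90 to -0.42), and Ier2 stood at 381 and 348.7 CPM (-0.13, -0.49 to 0.26). In Leydig barcodes Fos stood at 1142 CPM in WT and 2646 CPM in KO, above its level in the Sertoli barcodes of either genotype. Heat shock genes had a median of 1.64 over the whole set (10 of 15 2 times higher) and -0.04 with all 7 genes (0 of 15 higher or lower). Hspb1 stood at 1578 and 1636 CPM and Hspa5, the chaperone of the endoplasmic reticulum, at 1334 and 1253 CPM.

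Some of the largest ratios over the whole set belonged to genes outside the 16 lists. Edn1, the vasoconstrictor endothelin 1, had 2 UMIs in 1 of 18 WT barcodes and 552 UMIs in 201 of 406 KO barcodes, 11.9 and 129.8 CPM (3.45, 1.59 to 6.50). Outside the set Edn1 stood at 0.0126 CPM in WT and 0.185 CPM in KO, and in KO Leydig barcodes at 0.223 CPM, so its KO level in the Sertoli barcodes was far above that of the rest of the library. Tnfrsf12a, the receptor of the cytokine TWEAK, had 2 and 396 UMIs (2.97, 1.10 to 6.02) and stood at 1.72 CPM outside the KO set. Fcer1g, a signalling chain best known from myeloid cells, had 3 UMIs in 3 WT barcodes and 582 in 179 KO barcodes (2.94, 1.38 to 5.22), with 440.1 CPM in KO macrophage barcodes. Star, a cholesterol carrier, had 1 WT and 436 KO UMIs (102.5 CPM), below its 1085 CPM in KO Leydig barcodes. Each of these WT sums was of 1 to 3 UMIs.

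The genes with the 2 lowest ratios over the whole set were also low in the rest of the KO library. 1700063D05Rik had 92 UMIs in the WT set and 31 in the KO set (92.7 and 4.97 CPM, -4.22, -4.86 to -3.62), and outside the set it stood at 100.3 and 8.51 CPM. Gm10638 had a log2 ratio of -3.17 (-3.64 to -2.71) in the set and stood at 121.5 and 20.3 CPM outside it. It overlaps Siah1a on the other strand, so its reads are uncertain. In the low-protamine barcodes these 2 genes had 0 and 1 WT UMIs. The list of immature Sertoli marks and division genes also held Cdkn1b, the inhibitor p27 that holds adult Sertoli cells out of the cycle. Cdkn1b is thus not itself a mark of immature or dividing cells. With all 7 genes Cdkn1b stood at 214.3 and 109.1 CPM (-0.97, -1.47 to -0.44), the one gene of that list that passed the filter there. Over the whole set Cdkn1b had the opposite sign, at 41.3 and 78.8 CPM (0.93, 0.47 to 1.43), and the list had a median of -0.25 (0 of 2 higher, 1 lower). Of the other m6A proteins, the 6 that passed had a median of 1.56 over the whole set (4 higher, 0 lower) and 0.44 with all 7 genes (1 higher, 0 lower), the higher one being Zc3h13, a part of the writer complex, with 4 and 275 UMIs (1.44, 0.07 to 3.33).

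Within the KO library the 331 low-protamine barcodes were thinned to 4000 UMIs each, which left none out, to see how these barcodes differ among themselves. Lgals1, Serpina3a and the order below were taken from these values after they were seen. Apart from mitochondrial transcripts, the genes with the largest variance to mean ratio among 398 genes enriched in them began with Ctsl (7.15, mean 25.9 UMIs), Cst9 (5.56, mean 25.9), Lgals1 (5.28, mean 2.23) and Serpina3a (5.22, mean 1.18). Ctsl ran from 0 to 88 UMIs, with a median of 24, and in the 11 WT barcodes from 10 to 51, with a median of 19. Clu ran from 0 to 84 in KO, with a median of 42, and from 9 to 57 in WT, with a median of 33. The WT values lay within the KO range for both genes. Before thinning, the 331 KO barcodes ran from 8.04 to 486.1 UMIs per 10000 for the Sertoli genes outside the choice. The lowest of them thus stood near the median of 12.0 of KO barcodes outside the set. The part of such barcodes in the spread was not tested.

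Ctsl, whose message is known to peak at particular stages of the seminiferous cycle, varied together with other Sertoli genes. The genes of this paragraph were picked after their values were seen. Over the 331 barcodes, Spearman's rho with Ctsl had a median of 0.013 across 1831 genes and was highest for Aqp8, a water channel (0.59), Eppin, a protease inhibitor (0.57), Serpina3a (0.56), Rhox5 (0.55), Gsta2, a glutathione transferase (0.54), and Mfge8, a bridge for the uptake of dying cells (0.52), and lowest for Lgals1, a galectin (-0.43). In the 85 barcodes with 33 or more UMIs of Ctsl, Serpina3a averaged 3.19 UMIs and Lgals1 0.494, and in the 92 with 17 or fewer 0.1304 and 3.48. Low rho values after that of Lgals1 included Rpl39l (-0.33), Serf1 (-0.32) and Odf2 (-0.27). The part of germ cell RNA in them was not tested. The barcodes share 1 library and 1 depth, and a shared stage was not measured.

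**Figure D5:**
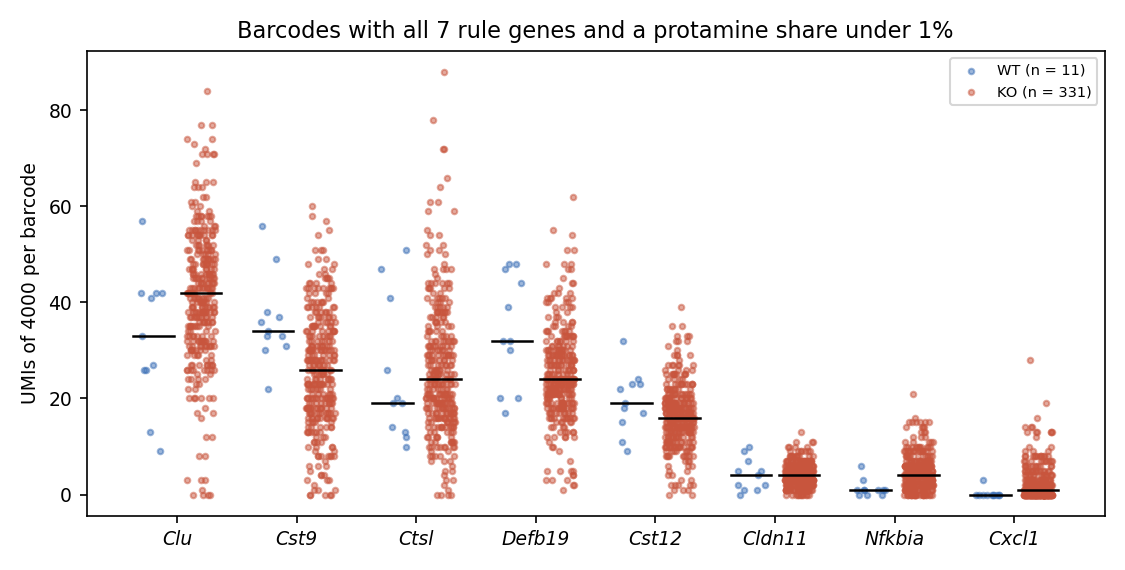
UMIs of 8 genes (x axis) per barcode thinned to 4000 UMIs (y axis) in the 11 WT (blue) and 331 KO (red) barcodes with all 7 genes and a protamine share under 1%. Black lines are medians. Ctsl spreads from 0 to 88 in KO with a median of 24 and from 10 to 51 in WT with a median of 19.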

How the data were processed

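The authors made 1 library per genotype with the GEXSCOPE kit and deposited a table of UMI counts per gene and barcode, without normalization. Per the labels and methods they trimmed adapters and poly A, aligned reads with STAR 2.5.3a and counted with featureCounts 1.6.2. The build named in the methods is a human one although gene symbols are of mouse, and the choice of barcodes for deposit is not described. The study's filter on genes per barcode removed none. Counts were summed per set of barcodes and divided by the set's total, per 1000000 (CPM). Ratios have exact conditional intervals, shares Clopper-Pearson intervals and sums Poisson intervals, at 95%. A sum of 0 was taken at 3 counts. Genes needed a UMI in at least 25% of the barcodes of either genotype. Called means a CPM ratio of at least 2. Scrublet in scanpy 1.11.5 (expected rate 0.06, 30 components) marked 3 of 73 WT and 51 of 577 KO Sertoli barcodes as doublets, and they were kept. The Sertoli barcodes, the gene lists and the rule for named genes were chosen with earlier results of these data known. The rule took Alkbh5, the 7 genes, the 4 Leydig and the 4 protamine and transition protein genes, in each list the 4 highest genes and those past a ratio of 2 with at least 100 UMIs over both genotypes, the 10 largest ratios in each direction under the same 2 limits, the 10 highest genes enriched 5 times, and the 10 most variable genes over the KO set at a mean of at least 0.5 UMI. Genes named for other reasons are said to be, and some genes that the rule takes are not reported here. Thinning drew 4000 UMIs per barcode. Barcodes with all 7 genes, and those of them under 1%, were added after seeing the data. Work was done in Python 3.11.15 with numpy 2.4.6 and scipy 1.17.1, and the ratio and its interval were tested on simulated counts.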

Additional observations from a re-analysis of the deposited data

How the results depend on the processing

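No paired analysis was possible because the labels carry no replicate numbers and each genotype has 1 library. Depth limits the WT side: 167961 UMIs stand behind the 18 WT barcodes with all 7 genes, 108785 behind the 11 low-protamine ones, and 4252640 and 3335551 behind the KO sets. Subtracting a scaled profile of the other barcodes gave no value, because the profile came to 104% of the WT set's UMIs (59.6% in KO).

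The ratio of the shares of Sertoli barcodes was 9.99 after thinning every barcode to 4000 UMIs, 18.5 with all 7 genes and 24.7 with all 7 genes and a protamine share under 1%. The last 2 settings were chosen after seeing the data, and at the other settings the ratio moved less than its interval. The protamine and transition protein share of WT and KO was 9.36% and 3.64% with at least 3 genes, 10.1% and 2.66% with at least 5, 9.86% and 3.23% at a Leydig limit of 80, 9.72% and 3.11% without doublets, 8.85% and 2.08% after thinning, 10.7% and 2.75% with equal weight per barcode, and 3.18% and 1.49% with all 7 genes. Genes 2 times higher and lower numbered 660 and 518 after thinning, 3453 and 2058 with a filter at 10% of barcodes, 5069 and 5163 with no filter, 497 and 340 with all 7 genes, and 580 and 493 with the low-protamine barcodes.

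Of the named genes and lists at least 2 times apart over the whole set, 13 genes and 1 list had the opposite sign with all 7 genes. These log2 ratios were Gja1 -0.012, Hspa5 -0.090, Axl -0.10, Ier2 -0.13, Wt1 -0.14, Amhr2 -0.17, Fth1 -0.24, Cst9 -0.25, Defb19 -0.27, Tyro3 -0.28, Aard -0.46, Jun -0.67 and Slc16a1 -0.76, and the heat shock list -0.043. With the low-protamine barcodes 18 genes and 3 lists did: Defb36 -0.080, Rhox8 -0.16, Cldn11 -0.16, Cst12 -0.16, Hspa5 -0.22, Axl -0.29, Gja1 -0.31, Hspb1 -0.35, Ier2 -0.37, Defb19 -0.46, Cst9 -0.48, Amhr2 -0.49, Tyro3 -0.53, Wt1 -0.54, Fth1 -0.57, Aard -0.58, Jun -0.93, Slc16a1 -1.10, and the lists of heat shock -0.21, m6A -0.32 and carriers -0.081. Below that limit, Cdkn1b was at 0.93 over the whole set, -0.97 with all 7 genes and -1.36 with the low-protamine barcodes, and the glucose and lactate list at 0.69, -0.060 and -0.18, and at -0.087 after thinning. Also after thinning, Aard was at -0.063, Slc16a1 at -0.36 and the m6A list at -0.087, and with barcodes at or below the WT median protamine share Tnp2 was at 0.039. The counts of opposite signs include Cst9, Defb19 and Aard with all 7 genes, and every gene of the choice with the low-protamine barcodes. The choice used these genes, so their signs describe the barcodes and are not a result. The cause of the changes in sign was not tested.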
